A study of Drosophila melanogaster with 17 samples.

Results

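The brain transcriptome of flies expressing wild-type human tyrosyl-tRNA synthetase (TyrRS-WT) was compared with that of the driver control (nSyb-Gal4>+). The comparison was between 6 of the 17 RNA-seq libraries, 3 of TyrRS-WT and 3 of control, chosen by their genotype labels. All 17 libraries were fitted together, and the 16163 genes with a count above 0 in at least 1 of the 17 were tested. All rows that name no gene were left out. The study asked how TyrRS, its mutant forms and its presence in the nucleus change neuronal gene expression. Besides these groups it sequenced TyrRS-WTΔNLS, in which the nuclear localization signal is disrupted, TyrRS-E196K, which carries a mutation that causes a peripheral neuropathy, and TyrRS-E196KΔNLS.

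TyrRS-WT flies carried 2 copies of the human transgene under UAS, switched on in all neurons by nSyb-Gal4, and control flies carried the driver with no transgene. TyrRS-WTΔNLS flies had 2 copies and TyrRS-E196K flies 1 copy. RNA came from whole dissected brains of adults aged 10 days, so glia and any attached tissue could contribute beside neurons. Reads of the human transcript have no gene to fall on in the fly genome, so its level is not analysed here. The authors extracted RNA in quadruplicate and left 1 control, 1 TyrRS-WT and 1 ΔNLS library out of their comparisons as outliers. The count table holds 3 libraries of each of these groups. The adjusted p-values below set each difference against the spread between libraries of a genotype, estimated from all 17 libraries. The number of the third TyrRS-WTΔNLS column differs from that of the third label of its group, so this library was used by its group only.

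Tyrosyl-tRNA synthetase attaches tyrosine to its transfer RNA, the first step in the use of that amino acid by the ribosome. Part of the human enzyme also enters the nucleus. Dominant mutations in its gene cause a form of Charcot-Marie-Tooth disease, a degeneration of peripheral nerves. The fly's own gene, Aats-tyr, had 50.1, 63.0 and 46.5 CPM in TyrRS-WT libraries, against 40.7, 50.5 and 46.9 CPM in control libraries. CPM are counts scaled to a common library size with TMM factors. The groups overlapped, with a log2 fold change of 0.21 ± 0.13 (SE, edgeR adjusted p = 0.545).

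Counts on genes were between 44673144 and 46789431 in TyrRS-WT libraries and between 29380481 and 41859207 in control libraries. The 10 neuronal marker genes, elav and nSyb among them, summed to between 7839 and 9416 CPM in TyrRS-WT libraries and between 8136 and 10727 CPM in control libraries, and none was called. The 15 glia markers summed to 4858, 5068 and 4929 CPM in TyrRS-WT libraries, all below the 5618, 5161 and 5753 CPM of control libraries, with a median log2 fold change of -0.18 and none called. In 5 of them all TyrRS-WT libraries lay below all control libraries (33.3%, against 8.14% of all genes). Markers of tissue outside the brain varied between libraries. Digestive enzymes summed to between 688 and 1295 CPM in TyrRS-WT libraries, and to 2663 CPM in control library 2 against 678 and 890 CPM in control libraries 1 and 3. Transcripts of the mitochondrial genome summed to between 50956 and 68287 CPM in TyrRS-WT libraries, and to 94559 CPM in control library 1 against 51609 and 60164 CPM in the other 2. The 17 ovary and egg genes summed to 52.5, 6.81 and 6.44 CPM in TyrRS-WT libraries 1, 2 and 3, and to between 22.6 and 30.6 CPM in control libraries. The part of these differences in the results below was not tested.

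In TyrRS-WT brains 371 genes differed from control at an edgeR adjusted p under 0.05, which is 2.30% of the genes tested. Of these, 204 were higher (1.26%) and 167 were lower (1.03%). The median log2 fold change was 0.82 among the genes that rose and -1.0 among those that fell, against 0.00 over all genes, and 85 rose and 84 fell by at least 1 on the log2 scale. The smallest changes called were 0.27 upward and 0.30 downward. The 3 TyrRS-WT libraries lay wholly above or below the 3 control libraries for 369 of the 371 genes. Over all genes the libraries of TyrRS-WT lay wholly above those of control for 7.59% and wholly below for 8.14%. Protein-coding genes made up 335 of the calls, and 27 were non-coding RNAs. When each library was left out in turn 136 of the 371 genes stayed called in every fit, and the number called lay between 203, without TyrRS-WT library 2 or without control library 3, and 398, without control library 2. Without control library 1 it was 207. Each gene named below is given with the number of the 24 alternative fits in which it was also called, where that was below 24. Those of the 24 that leave out a library of another genotype keep all 6 compared libraries, and so leave the compared counts unchanged. CG1208 and Hn lost the call in each fit without 1 of these 6. CG7763, EF2, Gadd45, Idgf5, MsR1 and Pdf lost it in most of those fits. The strand setting of the counting is not stated, so reads in exons shared with another gene cannot be assigned to 1 of them, which holds for phr, CR45973, CG6654, mus308, Ir76a, Cyp6d2, Cyp6t3, Cyp28d1, Cyp301a1, Oatp26F, baz, AttC, drpr, bw, nod, Hr38, CG10565, Jafrac2, eIF-3p40, Nmd3, CG1208, Sfp78E, CG4210 and yellow-f among the genes below.

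**Figure D1:**
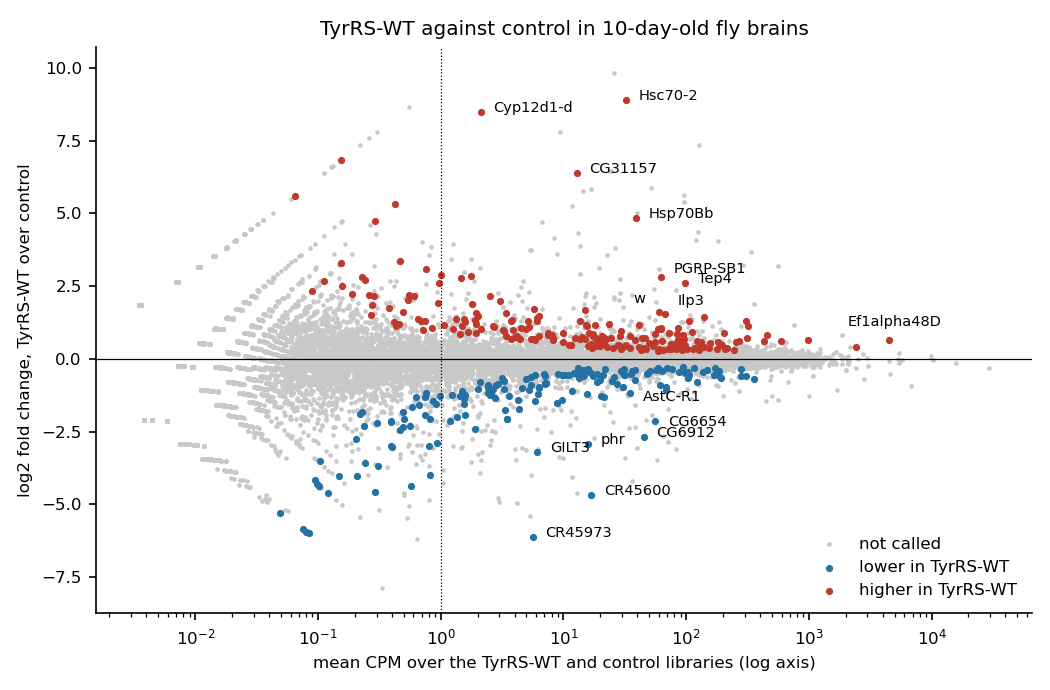
Log2 fold change of TyrRS-WT over control (vertical axis) against the mean CPM over the 6 libraries (horizontal log axis), 1 point per gene with a read in these libraries. Red points are the 204 genes called higher in TyrRS-WT, blue points the 167 called lower and grey points the rest, and the dotted line marks 1 CPM. Several grey points above 4 on the vertical axis are antimicrobial peptide genes, none of which passed the edgeR threshold.

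The control for the transgene itself was read from 2 fly genes. The genes w (white, an ABC transporter for eye pigment precursors) and Hsp70Bb (an inducible heat shock protein 70) matter here because the pUAST vector of the TyrRS constructs commonly carries a mini-white marker and an Hsp70 minimal promoter, which the count table cannot separate from the fly's own copies. w had 99.95, 81.7 and 89.7 CPM in TyrRS-WT libraries, against 31.0, 30.3 and 26.8 CPM in control libraries. Hsp70Bb had 77.8, 70.8 and 77.4 CPM in TyrRS-WT libraries, against 2.62, 2.36 and 2.96 CPM in control libraries. The groups stood far apart for both genes, with log2 fold changes of 1.62 ± 0.09 for w and 4.83 ± 0.30 for Hsp70Bb (edgeR adjusted p = 2.44e-09 and 6.18e-07). In TyrRS-E196KΔNLS, with 3 transgene copies, w was at 210 to 223 CPM and Hsp70Bb at 154 to 207 CPM, the highest of the 5 genotypes for both. TyrRS-E196K, with 1 copy, had w at 113 to 140 CPM and Hsp70Bb at 64.45 to 107.9 CPM. TyrRS-WTΔNLS, with 2 copies, had w at 62.0 to 69.7 CPM and Hsp70Bb at 37.85 to 78.6 CPM. With 2 copies w was lower in TyrRS-WT than in TyrRS-E196K with 1, by 0.48 on the log2 scale (edgeR adjusted p = 0.00286), so levels did not follow copies throughout. Whether reads of the vector make up these differences was not tested.

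Genes of the innate immune response were among those that rose. In flies, peptidoglycan recognition proteins and GNBPs detect microbes, serine proteases and the serpins that restrain them relay the signal, the NF-kB factor Relish (Rel) acts in the Imd pathway, and antimicrobial peptides are the secreted end products. Of 37 tested genes for recognition and for the Toll and Imd pathways, 6 rose and 1 fell (18.9% called), with a median log2 fold change of 0.25 and 34 of 37 values above 0. PGRP-SB1, a secreted peptidoglycan recognition protein, had 60.05, 146 and 122 CPM in TyrRS-WT libraries, against 11.7, 25.6 and 9.25 CPM in control libraries. Its 3 TyrRS-WT values were all above the control values, with a log2 fold change of 2.82 ± 0.62 (edgeR adjusted p = 0.0359, called in 16 of 24 fits). Rel had 135, 182 and 121 CPM in TyrRS-WT libraries, against 65.7, 105 and 62.1 CPM in control libraries, a log2 fold change of 0.91 ± 0.22 (edgeR adjusted p = 0.0478, 8 of 24 fits). The receptor PGRP-LC rose by 0.48 ± 0.12 (20 of 24 fits), GNBP1 by 0.48 ± 0.12 (18 of 24) and the protease persephone (psh), which activates Toll, by 0.44 ± 0.09 in all 24 fits. The serpin necrotic (nec), an inhibitor of the Toll cascade, rose by 0.54 ± 0.12 (20 of 24). Toll-7, a Toll family receptor, was the member that fell, by 0.35 ± 0.08 (19 of 24). Without TyrRS-WT library 2 or control library 3 the number of members called higher was 1, without control library 1 it was 2 and without TyrRS-WT library 1 it was 3.

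Further serine proteases rose. CG9733 (2.90 ± 0.43), CG30090 (2.14 ± 0.50, 16 of 24 fits) and CG11842 (1.66 ± 0.31, 20 of 24) were among the 15 largest rises. Named after their values were seen, grass, a protease upstream of Toll, rose by 0.74 ± 0.16 (21 of 24), Hayan, a protease of the melanization response, by 0.87 ± 0.19 (19 of 24), and CG11841 by 1.11 ± 0.22 (22 of 24). Of 28 serpins 3 rose and 1 fell (14.3% called), with a median log2 fold change of 0.36. Spn27A, which restrains melanization and the Toll cascade, had 60.3, 59.1 and 43.7 CPM in TyrRS-WT libraries, against 29.2, 38.2 and 31.5 CPM in control libraries (log2 fold change 0.72 ± 0.16, edgeR adjusted p = 0.0268, 20 of 24 fits). Spn42Da rose by 0.44 ± 0.10 (20 of 24) and Spn47C fell by 0.65 ± 0.16 (16 of 24). Without TyrRS-WT library 2, control library 1 or control library 3 no serpin was called higher.

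Tep4, a thioester protein of the complement-like family, rose by 2.62 ± 0.22 and was the member called among 14 thioester and Turandot genes (7.14%). fon (fondue), a clotting factor, had 286, 495 and 533 CPM in TyrRS-WT libraries, against 148, 270 and 183 CPM in control libraries (log2 fold change 1.13 ± 0.26, edgeR adjusted p = 0.0359, 16 of 24 fits). The chitinase-like growth factors CG5210 (Idgf6), Idgf5 and Idgf2 rose by 0.82 ± 0.16 (22 of 24), 1.15 ± 0.25 (18 of 24) and 0.46 ± 0.11 (16 of 24). Irc, a catalase named for its role in immunity, had 386, 433 and 361 CPM in TyrRS-WT libraries, against 265, 234 and 219 CPM in control libraries, a change of 0.72 ± 0.13. The engulfment receptor drpr (draper), which glia use to clear neuronal debris, rose by 0.35 ± 0.08 (21 of 24), and Pvr, a receptor tyrosine kinase of blood cells and glia, rose by 0.50 ± 0.10 (22 of 24). The 10 hemocyte markers had 7 values below 0 and a median of -0.37. They summed to 1533, 1019 and 1443 CPM in TyrRS-WT libraries and to between 1570 and 1668 CPM in control libraries, and none was called.

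None of the 35 antimicrobial peptide genes passed the test in edgeR, although 31 had a log2 fold change above 0, the median was 1.96 and 23 were higher at an unadjusted p under 0.05 (6.71% of all genes were). DESeq2 called 15 of them higher. All 3 TyrRS-WT libraries lay above all control libraries for 16 of the 35 (45.7%, against 7.59% of all genes). Dpt (Diptericin A), a target of Relish, had 55.7, 303 and 401 CPM in TyrRS-WT libraries, against 2.12, 2.23 and 0.409 CPM in control libraries (log2 fold change 7.35 ± 2.31, edgeR adjusted p = 0.149). AttC, an attacin, had 131, 434 and 472 CPM in TyrRS-WT libraries, against 12.0, 48.3 and 2.84 CPM in control libraries (4.04 ± 1.12, edgeR adjusted p = 0.0999). Mtk, the antifungal peptide metchnikowin, had 149, 368 and 171 CPM in TyrRS-WT libraries, against 10.1, 29.1 and 1.41 CPM in control libraries (4.08 ± 1.23, edgeR adjusted p = 0.133). TyrRS-WT library 1 was the lowest of the 3 for each of these peptides, yet above every control library. Drs (drosomycin), the classical Toll target, had 47.95, 340 and 24.7 CPM in TyrRS-WT libraries and overlapped the control libraries at 33.5, 30.1 and 16.8 CPM. edin, a small gene known to rise on infection and named after its values were seen, had 7.38, 30.9 and 117 CPM in TyrRS-WT libraries, against 0.0353, 0.0531 and 0.0682 CPM in control libraries (edgeR adjusted p = 0.135). The stress-induced Turandot genes followed another order of libraries. TotA had 546, 2424 and 66.1 CPM in TyrRS-WT libraries, against 65.5, 204 and 64.9 CPM in control libraries, so that TyrRS-WT library 2 was far above the rest and library 3 lay among the controls. Dpt was not called between TyrRS-WT and TyrRS-WTΔNLS (log2 difference 3.29 ± 1.86, edgeR adjusted p = 0.637) or TyrRS-E196K (1.45 ± 1.58, edgeR adjusted p = 0.779). Without TyrRS-WT library 2 the median of the antimicrobial peptides was 0.79, and without TyrRS-WT library 3 edgeR called 3 of them higher.

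**Figure D2:**
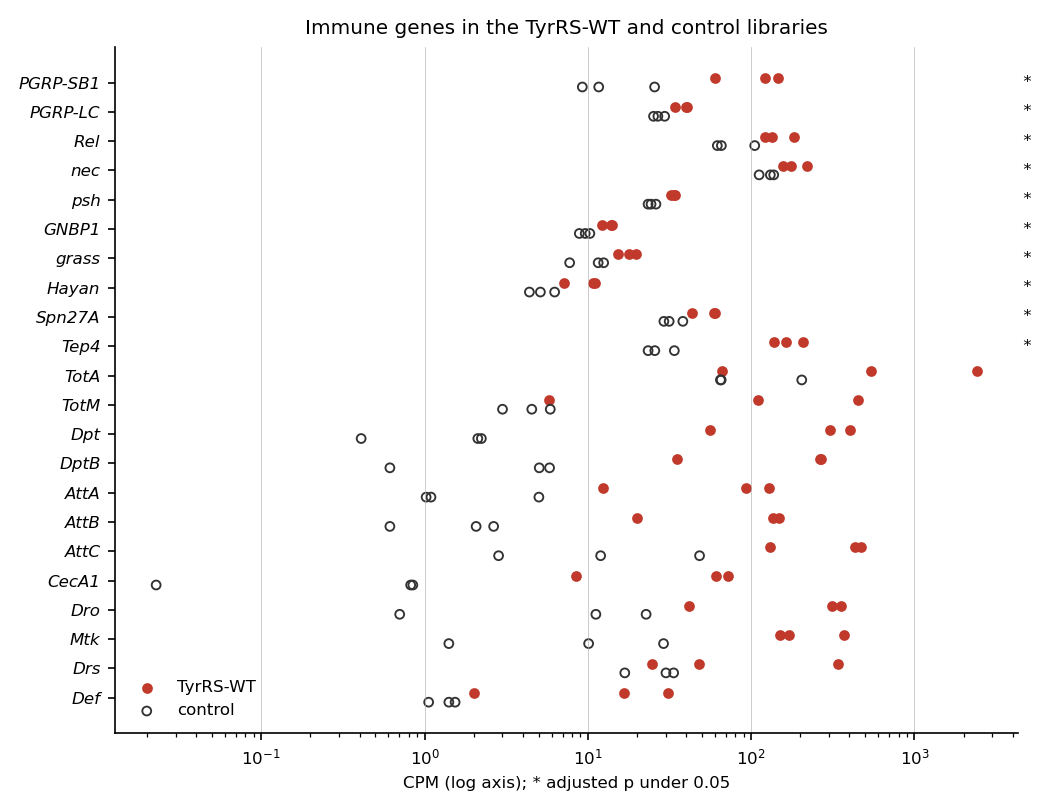
CPM (log axis) of 22 immune genes in the 3 TyrRS-WT libraries (filled circles, upper row of each gene) and the 3 control libraries (open circles, lower row). An asterisk marks genes with an edgeR adjusted p under 0.05. The recognition and cascade genes in the upper part were picked as called higher or after their values were seen, and do not overlap between the groups. Toll-7 and the serpin Spn47C, called lower, are not shown. Of all 37 tested recognition and pathway genes, 13 lay wholly above control (35.1%, against 7.59% of all genes) and 1 wholly below (2.7%, against 8.14%). Drs and TotA overlap, and peptides such as Dpt spread from 55.7 to 401 CPM within TyrRS-WT and from 0.409 to 2.23 CPM within control.

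Of the 6 genes of the Hsc70 cognate family of chaperones 1 was called (16.7%), Hsc70-2, whose log2 fold change of 8.90 ± 0.57 was the largest of the named genes that rose, and the median was 0.12. Of 22 inducible heat shock genes Hsp70Bb was the member called (4.55%), and the median was 0.42 with 18 of 22 values above 0. With genes that had no read in 1 group set to the bound that 3 counts allow, the median was 0.26, and without TyrRS-WT library 1 it was 0.04. The sister gene Hsp70Ba had 1.77, 0.152 and 0.216 CPM in TyrRS-WT libraries and 0.0707, 0.133 and 0.159 CPM in control libraries, with a single high library. The co-chaperone gene CG10565, an orthologue of zuotin on the ribosome, rose by 0.33 ± 0.07 (21 of 24 fits). Cnx14D, a calnexin-like chaperone of the endoplasmic reticulum, was near the limit of detection and lower, at 0.104, 0.0653 and 0.0862 CPM in TyrRS-WT libraries, against 0.601, 0.716 and 0.796 CPM in control libraries (-3.01 ± 0.46). The protease S1P, which activates membrane-bound transcription factors in the Golgi, fell by 0.55 ± 0.08. None of 14 integrated stress response genes, 33 proteasome subunits or 22 autophagy genes was called by edgeR, with 1, 0 and 5 of them higher at an unadjusted p under 0.05, and DESeq2 called 0, 0 and 2 of them higher.

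Ef1alpha48D, elongation factor 1 alpha, had 4670, 5063 and 6753 CPM in TyrRS-WT libraries, against 3496, 4076 and 3086 CPM in control libraries, and had the highest mean of the named rises (log2 fold change 0.63 ± 0.15, edgeR adjusted p = 0.0269, 20 of 24 fits). EF2, elongation factor 2, had 2602, 2675 and 2998 CPM in TyrRS-WT libraries, against 2034, 2242 and 1984 CPM in control libraries (0.40 ± 0.10, edgeR adjusted p = 0.0313, 16 of 24 fits). The polyubiquitin gene Ubi-p5E had 699, 714 and 741 CPM in TyrRS-WT libraries, against 418, 479 and 498 CPM in control libraries (0.63 ± 0.10, edgeR adjusted p = 0.000855). The groups did not overlap for any of the 3 genes. Of 32 tRNA synthetases 1 rose (3.12%, against 2.30% of all genes called), Aats-val, the valyl enzyme (0.31 ± 0.08, 15 of 24), and the median was 0.08. Among genes named after their values were seen, the initiation factor subunit eIF-3p40 rose by 0.32 ± 0.08 (5 of 24), the ribosome export adapter Nmd3 by 0.36 ± 0.07 (21 of 24), the ribosome assembly factor bys by 0.37 ± 0.08 (18 of 24) and CG18600 by 0.67 ± 0.14 (22 of 24). None of the 88 cytosolic ribosomal protein genes was called by edgeR, while 76 of the 88 had values above 0 with a median of 0.11 (against 8234 of 16163 and a median of 0.00 for all genes). At an unadjusted p under 0.05, 3 of them were higher and 2 lower, and DESeq2 called 1 lower. 4EHP, a cap-binding protein that represses translation, fell by 0.65 ± 0.12 (23 of 24), and its exons overlap those of the synaptic gene Syx1A, from which its reads cannot be told apart.

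Neuropeptide precursors mostly had values below 0. Neuropeptides are released by small groups of neurosecretory cells and interneurons and act on G protein-coupled receptors. Of 46 tested precursors 5 fell and 1 rose (13% called), 35 of 46 values were below 0, the median was -0.17, and in 18 all TyrRS-WT libraries lay below all control libraries (39.1%, against 8.14% of all genes). Pdf, the peptide of the clock neurons, had 145, 122 and 140 CPM in TyrRS-WT libraries, against 187, 168 and 247 CPM in control libraries (log2 fold change -0.56 ± 0.13, edgeR adjusted p = 0.0329, 18 of 24 fits). AstC, allatostatin C, had 141, 149 and 192 CPM in TyrRS-WT libraries, against 226, 192 and 219 CPM in control libraries, where the highest TyrRS-WT and the lowest control library nearly met (-0.41 ± 0.10, edgeR adjusted p = 0.0389, 15 of 24 fits). Dsk, the satiety peptide drosulfakinin, fell by 0.46 ± 0.11 (20 of 24), Mip, the myoinhibitory peptide, by 0.40 ± 0.09 (20 of 24) and the rare Nplp4 by 2.07 ± 0.34. Without TyrRS-WT library 1, TyrRS-WT library 2 or control library 3 the number of precursors called lower was 1, and without control library 1 it was 3. In bulk tissue fewer cells of a type and less RNA per cell cannot be told apart.

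The insulin-like peptide Ilp3, made by insulin-producing cells of the brain, was the precursor that rose. It had 94.5, 76.5 and 129 CPM in TyrRS-WT libraries, against 33.4, 31.2 and 37.5 CPM in control libraries, with no overlap (log2 fold change 1.56 ± 0.17, edgeR adjusted p = 5.55e-05). Its partners from the same cells did not pass the test. Ilp2 had 251, 188 and 268 CPM in TyrRS-WT libraries and 193, 182 and 229 CPM in control libraries (0.23 ± 0.18), and Ilp5 had 29.5, 26.2 and 52.5 CPM in TyrRS-WT libraries and 16.9, 26.7 and 28.4 CPM in control libraries (0.59 ± 0.39). In TyrRS-WT Ilp3 was also higher than in TyrRS-E196K, by 2.65 on the log2 scale (edgeR adjusted p = 9.74e-08), and no difference from TyrRS-WTΔNLS was called (0.56 ± 0.17, edgeR adjusted p = 0.181).

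Of 41 neuropeptide receptors 3 fell and none rose (7.32% called), with a median of 0.05. AstC-R1, a receptor of allatostatin C, had 20.8, 20.2 and 23.4 CPM in TyrRS-WT libraries, against 55.9, 45.1 and 43.6 CPM in control libraries (-1.17 ± 0.10, edgeR adjusted p = 6.78e-07). The proctolin receptor Proc-R fell by 0.50 ± 0.12 (19 of 24) and the myosuppressin receptor MsR1 by 0.41 ± 0.10 (17 of 24). Without TyrRS-WT library 1, TyrRS-WT library 2, control library 1 or control library 3 only 1 receptor was called lower.

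Genes of the synapse and of excitability stayed below the threshold. None of 41 synaptic vesicle genes, 43 channel genes or 51 transmitter receptor genes was called by edgeR, with medians of -0.04, -0.01 and 0.01. At an unadjusted p under 0.05 none, 1 and 1 were higher and 1, 2 and 1 were lower, and DESeq2 called 0, 1 and 1 lower. Of 20 genes known to respond to neuronal activity 17 had values above 0 and the median was 0.41, with CG14024 called (5%). Hr38, the nuclear receptor used as an activity reporter, had 53.1, 82.1 and 47.4 CPM in TyrRS-WT libraries, against 30.4, 36.2 and 23.7 CPM in control libraries, a difference that missed the threshold (1.02 ± 0.61, edgeR adjusted p = 0.557). Henna (Hn), the phenylalanine hydroxylase that makes tyrosine, had 306, 288 and 320 CPM in TyrRS-WT libraries, against 214, 176 and 231 CPM in control libraries (0.56 ± 0.14, edgeR adjusted p = 0.0448, 11 of 24 fits). It was the member called among 23 genes of monoamine synthesis and tyrosine use (4.35%). Cell surface genes with larger rises were kek2, a leucine-rich repeat protein, at 267, 247 and 276 CPM in TyrRS-WT libraries, against 157, 139 and 132 CPM in control libraries (0.88 ± 0.08, edgeR adjusted p = 1.43e-06), and CG42596, a member of the Dpr family of synaptic recognition proteins (0.82 ± 0.07). axo, axotactin, fell by 0.34 ± 0.08 (16 of 24), and its exons overlap the non-coding gene CR45830.

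**Figure D3:**
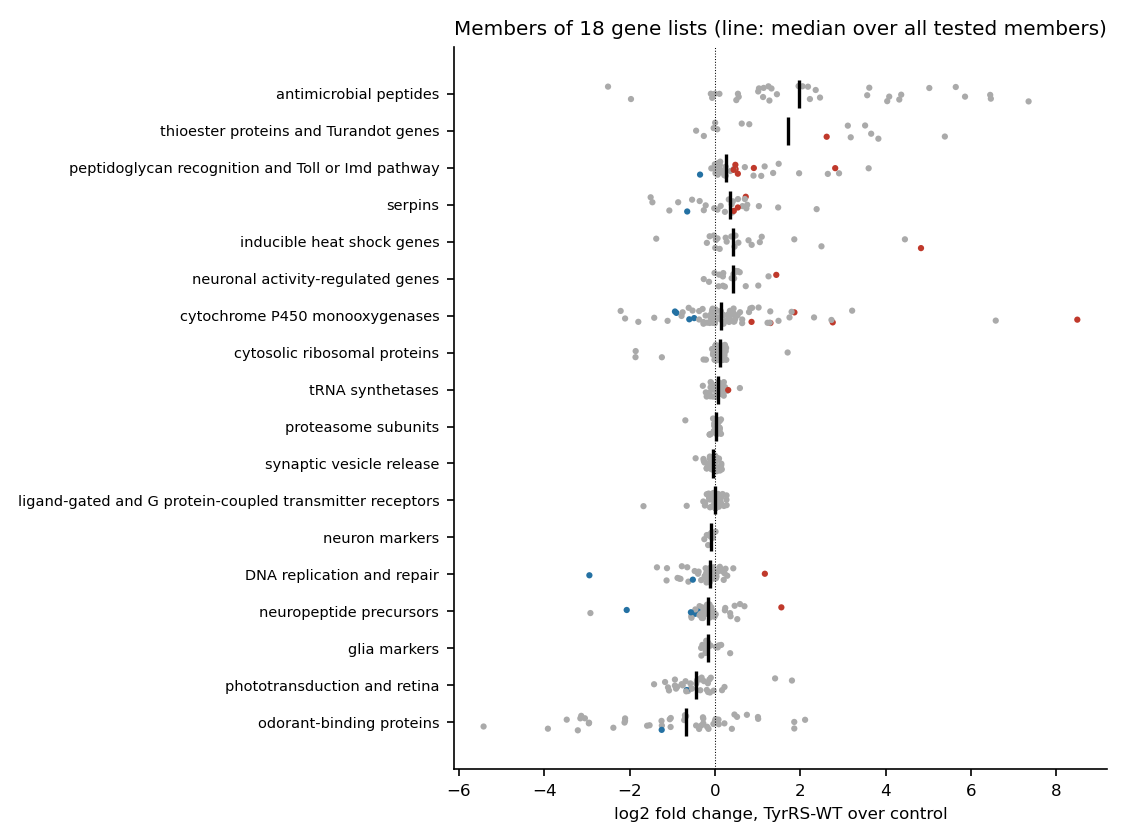
Log2 fold change of TyrRS-WT over control (horizontal axis) for every tested member of 18 gene lists, 1 point per gene, with a vertical bar at the median over all tested members. Red points were called higher in TyrRS-WT, blue points lower and grey points neither. The medians run between 1.96 for antimicrobial peptides and -0.69 for odorant-binding proteins, while the lists of synaptic vesicle genes and transmitter receptors lie at -0.04 and 0.01.

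Of 35 phototransduction and retina genes 31 had values below 0 and the median was -0.44. In 20 of the 35 all TyrRS-WT libraries lay below all control libraries (57.1%, against 8.14% of all genes), and 18 were lower at an unadjusted p under 0.05 (6.24% of all genes were). The edgeR threshold was passed by 1 (2.86%). That gene was ninaG, an oxidoreductase that makes the rhodopsin chromophore, at 9.41, 11.8 and 9.998 CPM in TyrRS-WT libraries, against 14.2, 17.5 and 17.6 CPM in control libraries (-0.66 ± 0.17, edgeR adjusted p = 0.0434, 9 of 24 fits). Without any 1 of the 6 libraries no member was called lower by edgeR. DESeq2 called 10 lower, and edgeR on only both genotypes called 12 lower. ninaE, the rhodopsin of the outer photoreceptors, had 4096, 5223 and 4674 CPM in TyrRS-WT libraries, against 7606, 9677 and 9547 CPM in control libraries (-0.94 ± 0.27, edgeR adjusted p = 0.08). trpl, a cation channel of photoreceptors, had 325, 271 and 320 CPM in TyrRS-WT libraries, against 635, 864 and 967 CPM in control libraries (-1.43 ± 0.38, edgeR adjusted p = 0.083). The rhodopsins Rh3, Rh5 and Rh6 of the inner photoreceptors had log2 fold changes of -0.94, -1.17 and -0.91 and likewise did not pass. The whole list summed to between 14280 and 16628 CPM in TyrRS-WT libraries and between 23044 and 27127 CPM in control libraries. Whether the amount of retina left on the brains differed was not tested. bw (brown), the partner of w in pigment transport, fell by 1.20 ± 0.24 while w rose.

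Of 175 chemosensory receptors 3 fell and none rose (1.71% called, below the share over all genes), 91 had values below 0 and 84 above with a median of -0.06, and 29 of the 175 had no read in 1 of the groups. Ir76a, an ionotropic receptor for amines, had 9.30, 8.73 and 10.5 CPM in TyrRS-WT libraries, against 21.1, 20.3 and 24 CPM in control libraries (-1.20 ± 0.12, edgeR adjusted p = 8.29e-06). Or67d, the receptor for the male pheromone cis-vaccenyl acetate, fell by 1.05 ± 0.23 (20 of 24) and Or13a by 1.02 ± 0.18. Of 48 odorant-binding proteins 34 had values below 0 with a median of -0.69, or -0.30 with the 7 genes that had no read in 1 group at their bound. Obp57a was the member called (2.08%), at -1.25 ± 0.31 (16 of 24). Obp83a had 0.73, 0.501 and 1.79 CPM in TyrRS-WT libraries, against 10.3, 12.3 and 4.00 CPM in control libraries (edgeR adjusted p = 0.314).

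Detoxification genes moved in both directions. Of 85 cytochrome P450 monooxygenases 5 rose and 4 fell (10.6% called), with a median of 0.13. Cyp12d1-d, a mitochondrial P450 linked to insecticide tolerance, had 593 reads in the 3 TyrRS-WT libraries and 1 read in the 3 control libraries, a ratio of 465 (95% counting interval 83.1 to 18400 after library scaling). Its values were 5.82, 5.73 and 1.10 CPM in TyrRS-WT libraries, and it was called in 23 of 24 fits. Its near-identical neighbour Cyp12d1-p was not called (1.80 ± 0.79), and reads of the pair could have been split between them. Cyp6d2 rose by 2.76 ± 0.38, Cyp6t3 by 1.30 ± 0.21, Cyp313a2 by 1.86 ± 0.38 (23 of 24) and Cyp12c1 by 0.86 ± 0.17 (22 of 24). Cyp28d1, which had 281, 231 and 223 CPM in TyrRS-WT libraries, against 414, 283 and 419 CPM in control libraries, fell by 0.60 ± 0.13 (19 of 24). Its close relative Cyp28d2 fell by 0.91 ± 0.17, Cyp301a1, a gene of cuticle formation, by 0.94 ± 0.19 (21 of 24) and Cyp6a14 by 0.49 ± 0.12 (16 of 24). Without control library 3, 4 rose and 1 fell, and without control library 2, 8 rose and 6 fell. Without any other of the 6 libraries 2 fell. Of 36 glutathione transferases (5.56% called) GstE11 rose by 0.99 ± 0.22 (19 of 24) and GstD9 fell by 0.91 ± 0.21 (12 of 24). The glucuronosyl transferases Ugt86Di and Ugt58Fa fell by 1.00 ± 0.20 (22 of 24) and 0.48 ± 0.12 (12 of 24), as did the peroxiredoxin Jafrac2, by 0.56 ± 0.12 (20 of 24). The organic anion transporter Oatp26F fell by 1.54 ± 0.21.

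Genes of DNA repair and the cell cycle included a large rise and a large fall. Of 54 replication and repair genes 1 rose and 2 fell (5.56% called), with a median of -0.12. mus308, DNA polymerase theta, which joins broken ends by microhomology, had 20.4, 18.4 and 24.9 CPM in TyrRS-WT libraries, against 9.61, 9.55 and 9.14 CPM in control libraries (1.17 ± 0.11, edgeR adjusted p = 3.34e-06). phr, the photolyase that reverses ultraviolet damage, had 3.55, 3.55 and 3.92 CPM in TyrRS-WT libraries, against 24.7, 27.4 and 32.7 CPM in control libraries (-2.94 ± 0.18, edgeR adjusted p = 1.09e-08). Topors, a ubiquitin and SUMO ligase named after its values were seen, had 81.0, 68.0 and 90.05 CPM in TyrRS-WT libraries, against 39.8, 38.6 and 38.1 CPM in control libraries (1.04 ± 0.09, edgeR adjusted p = 6.78e-07). Gadd45, a stress gene of the DNA damage response, fell by 0.78 ± 0.17 (19 of 24). Of 26 mitosis genes 24 had values below 0 with a median of -0.38 and none was called by edgeR, with 5 lower at an unadjusted p under 0.05 and 2 called lower by DESeq2. CycB, abundant in eggs, had 1.02, 0.37 and 0.517 CPM in TyrRS-WT libraries, against 4.59, 4.56 and 21.5 CPM in control libraries. The egg genes yl and nos had log2 fold changes of -4.78 and -3.72, which did not pass the test either, and the part of egg RNA in the mitosis genes was not tested. nod, a chromosome kinesin, fell by 1.17 ± 0.29 (12 of 24).

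Dhc98D, an axonemal dynein heavy chain, had 2.27, 1.81 and 1.98 CPM in TyrRS-WT libraries, against 7.24, 7.01 and 5.68 CPM in control libraries (-1.72 ± 0.18, edgeR adjusted p = 8.34e-06). CG5142 (Ttc30), a subunit of intraflagellar transport, had 1.25, 1.35 and 1.40 CPM in TyrRS-WT libraries, against 6.537, 4.83 and 5.48 CPM in control libraries (-2.07 ± 0.21, edgeR adjusted p = 5.8e-06). Of the 20 dynein genes tested Dhc98D was the member called (5%), and the median was -0.11.

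Cuticle, lipid and hormone genes had few calls, and the share called over all genes was 2.30%. Of 121 cuticle proteins 3 rose and 1 fell (3.31% called), and 31 of the 121 had no read in 1 of the groups. Edg78E had 2.75, 2.83 and 3.00 CPM in TyrRS-WT libraries, against 0.601, 0.902 and 0.796 CPM in control libraries (1.89 ± 0.24, edgeR adjusted p = 0.000103). Cpr62Ba rose by 1.91 ± 0.41 (21 of 24) and Cpr78Cc, which lies in the same cluster as Edg78E, by 1.08 ± 0.21, while Cpr47Ef fell by 0.90 ± 0.19 (20 of 24). Of 36 lipid genes 2 rose and 1 fell, S1P (8.33% called), with a median of 0.12. The acyltransferase CG4729 and the carnitine palmitoyltransferase CG2107 rose by 0.29 ± 0.07 (10 of 24) and 0.40 ± 0.10 (7 of 24). Of 37 juvenile hormone and ecdysone genes 2 rose and none fell (5.41% called), with a median of 0.01. These were phm, a P450 of ecdysone synthesis, and Eip55E, the cystathionine gamma-lyase, which rose by 1.75 ± 0.42 (18 of 24) and 0.48 ± 0.12 (12 of 24). Without TyrRS-WT library 2 or control library 3 no hormone gene was called. No lipid gene was called higher without TyrRS-WT library 1, TyrRS-WT library 2 or control library 1. Without control library 3, 2 cuticle proteins were called higher and none lower. The transporter gene CG1208 rose by 0.77 ± 0.18 (18 of 24). Of 44 male accessory gland genes (4.55% called), all with means under 1 CPM, Acp33A rose (20 of 24) and Sfp78E fell (18 of 24). Acp33A had 40 reads in TyrRS-WT libraries and 3 reads in control libraries, a ratio of 10.5 (95% counting interval 3.33 to 52.8).

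Other abundant genes changed by less than 1 on the log2 scale, with some exceptions. baz (bazooka), the polarity protein Par-3, had 545, 471 and 536 CPM in TyrRS-WT libraries, against 371, 340 and 315 CPM in control libraries (0.60 ± 0.13, edgeR adjusted p = 0.015, 22 of 24 fits). Zir had 342, 290 and 344 CPM in TyrRS-WT libraries, against 241, 191 and 205 CPM in control libraries (0.62 ± 0.10, edgeR adjusted p = 0.00153). CG10737 rose by 1.30 ± 0.11 and CG4716 by 0.65 ± 0.16 (12 of 24). rl (rolled), the ERK kinase of receptor tyrosine kinase signalling, had 144, 159 and 139 CPM in TyrRS-WT libraries, against 264, 198 and 226 CPM in control libraries (-0.64 ± 0.09, edgeR adjusted p = 0.000496). CG15201 fell by 0.71 ± 0.15 (20 of 24) and CG5455 by 0.32 ± 0.07 (19 of 24). Among the 15 largest rises and falls, genes given here without a role were CG7763 (2.86 ± 0.62, 19 of 24), CG9616 (1.97 ± 0.29) and CG1113 (1.71 ± 0.17), and CG13488 (-2.41 ± 0.59, 13 of 24), CG2121 (-2.08 ± 0.50, 11 of 24), CG1690 (-2.02 ± 0.44, 20 of 24), Osi2 (-1.77 ± 0.37, 21 of 24) and the non-coding CR44603 (-2.15 ± 0.27) and CR44441 (-1.94 ± 0.27).

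The genes called lay on every arm, with 1.43% of X-linked genes called, 2.24% on 2L, 2.78% on 2R, 2.78% on 3L, 2.28% on 3R and 1.83% on chromosome 4. Of 136 windows of 1 Mb, 28 held at least 5 called genes and 22 held none, and the fullest held 10. Windows with at least 5 called genes numbered 6 without TyrRS-WT library 2, 8, 9 and 10 without control library 1, control library 3 and TyrRS-WT library 1, and 21 without TyrRS-WT library 3. Positions are those of BDGP6. Hsc70-2, at 69.1, 58.6 and 67.6 CPM in TyrRS-WT libraries and at most 0.212 CPM in control libraries, lies on 3R at the start of a run of 4 adjacent genes that rose. After it came CG31157 (25.5, 24.9 and 25.4 CPM in TyrRS-WT libraries, against 0.495, 0.265 and 0.182 CPM in control libraries), CG7966 (100.5, 79.0 and 71.7 CPM, against 41.02, 30.3 and 48.96 CPM) and pic, the DDB1 subunit of a ubiquitin ligase (88.4, 83.1 and 88.0 CPM, against 66.3, 66.6 and 70.2 CPM). Their log2 fold changes of 8.90, 6.37, 1.06 and 0.35 became smaller with distance, over 7.5 kb between the starts of Hsc70-2 and pic. Of 33 genes within 100 kb of the start of Hsc70-2, itself included, 5 rose and none fell, the fifth being yellow-f. The region was chosen for its largest rise, so the count is a description. CG7966 and pic were each called in 23 of 24 fits.

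A second stretch of 3R held falls. Of 29 genes within 100 kb of the start of CG6912, itself included, 6 fell and none rose, and this region too was chosen for its falls. CG6912, CR45600 and CG3987 adjoin each other, with log2 fold changes of -2.69, -4.67 and -1.51, and since the exons of CR45600 overlap those of both others, reads there cannot be assigned to 1 gene. CG3987 was called in 19 of 24 fits. About 76.1 kb on lie CG6654 (-2.16) and CG4210 (-1.44), and then CG31344 (-0.73). CR45973, a non-coding RNA gene on 3L whose exons overlap CG13248, had 0.146, 0.239 and 0.0862 CPM in TyrRS-WT libraries, against 11.8, 8.84 and 12.7 CPM in control libraries (-6.12 ± 0.30, edgeR adjusted p = 1.19e-09). GILT3, of the family of lysosomal thiol reductases, had 1.40, 1.13 and 1.03 CPM in TyrRS-WT libraries, against 9.75, 10.6 and 12.8 CPM in control libraries (-3.21 ± 0.26, edgeR adjusted p = 5.95e-07). For both genes the groups lay far apart, whereas the 2 genes on each side of them did not pass the test. Near the centromere of 2R, genes went both ways, all but rl and CG40498 named after their values were seen. Yeti, CG40191 and CG40498 fell by 0.57 ± 0.08, 0.49 ± 0.08 and 0.58 ± 0.10, as did rl, whereas CG17684 and CG41378 rose by 0.65 ± 0.09 and 0.71 ± 0.07, each of them in all 24 fits.

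**Figure D4:**
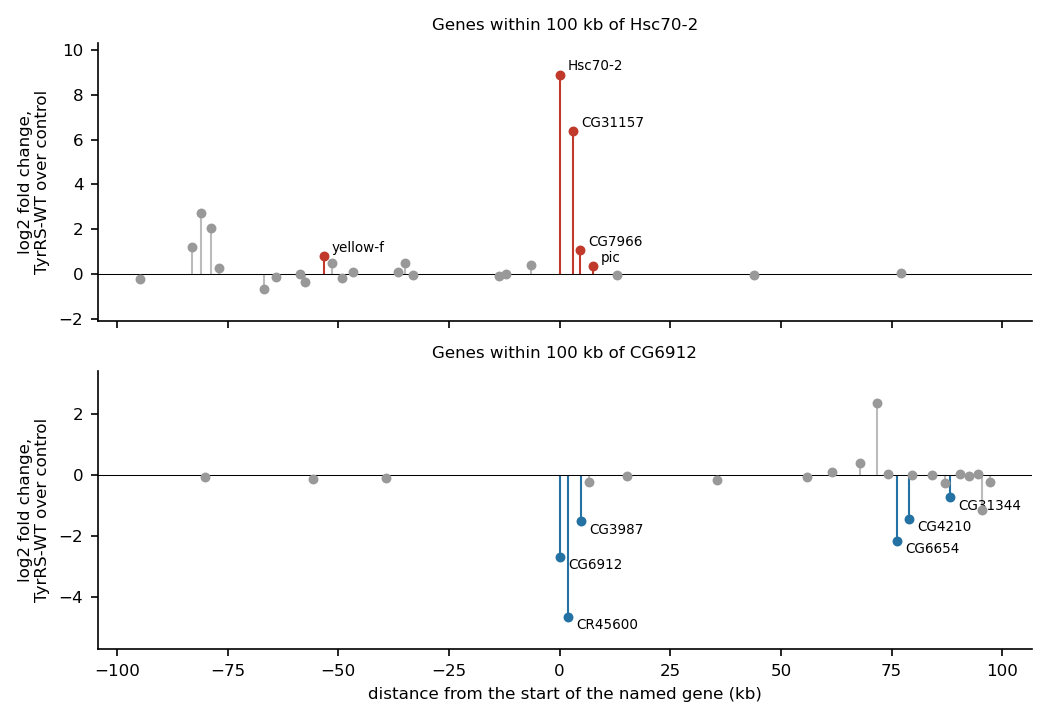
Log2 fold change of TyrRS-WT over control (vertical axis) against the distance of each gene's start from that of Hsc70-2 (upper panel) or CG6912 (lower panel), in kb, for genes that averaged 0.1 CPM or more. Red genes were called higher, blue genes lower and grey genes neither. The run that begins with Hsc70-2 has values of 8.90, 6.37, 1.06 and 0.35, and the lower panel shows 2 groups of 3 genes that fell.

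Direct tests against TyrRS-WTΔNLS and TyrRS-E196K, in the same fit, divided these genes. No test was run against TyrRS-E196KΔNLS. TyrRS-WT differed from TyrRS-WTΔNLS in 194 genes (1.20%), of which 90 were lower (0.557% of genes) and the rest higher (0.643%). It differed from TyrRS-E196K in 262 genes (1.62%), 151 higher (0.934%) and 111 lower (0.687%). A set of genes stood apart in TyrRS-WT from control, TyrRS-WTΔNLS and TyrRS-E196K. kek2 was higher than in TyrRS-WTΔNLS by 1.04 and than in TyrRS-E196K by 0.83, Topors by 1.07 and 1.01, mus308 by 1.21 and 1.13, CG2218 by 0.81 and 0.80, Zir by 0.77 and 0.57 and CG7966 by 1.138 and 1.007, with edgeR adjusted p of at most 0.00178 in each test. The same held for Hsc70-2, by 8.44 and 8.21, and for CG31157, by 7.40 and 6.82.

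Other genes differed from control without a difference called from TyrRS-WTΔNLS or TyrRS-E196K. Ir76a was at 9.30 to 10.3 CPM in TyrRS-WTΔNLS and at 9.40 to 11.4 CPM in TyrRS-E196K, with log2 differences of TyrRS-WT from them of -0.05 ± 0.12 and -0.06 ± 0.11 (SE). CG6912, CR45600, CG6654, Dhc98D, AstC-R1, rl and Ubi-p5E likewise showed no difference called in either test. phr was lower in TyrRS-WT than in TyrRS-E196K, by 2.00 (edgeR adjusted p = 9.45e-07), and no difference from TyrRS-WTΔNLS was called (0.40, edgeR adjusted p = 0.475). AstC and Pdf, lower than in control, were higher in TyrRS-WT than in TyrRS-E196K, by 0.87 and 1.42 (edgeR adjusted p = 1.71e-05 and 1.66e-06). Each genotype also has its own transgene insertions, whose sites are not given in the sources used here. The genetic background of the control cross is not described in them either. Effects of the protein, of the insertions and of the background cannot be told apart.

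**Figure D5:**
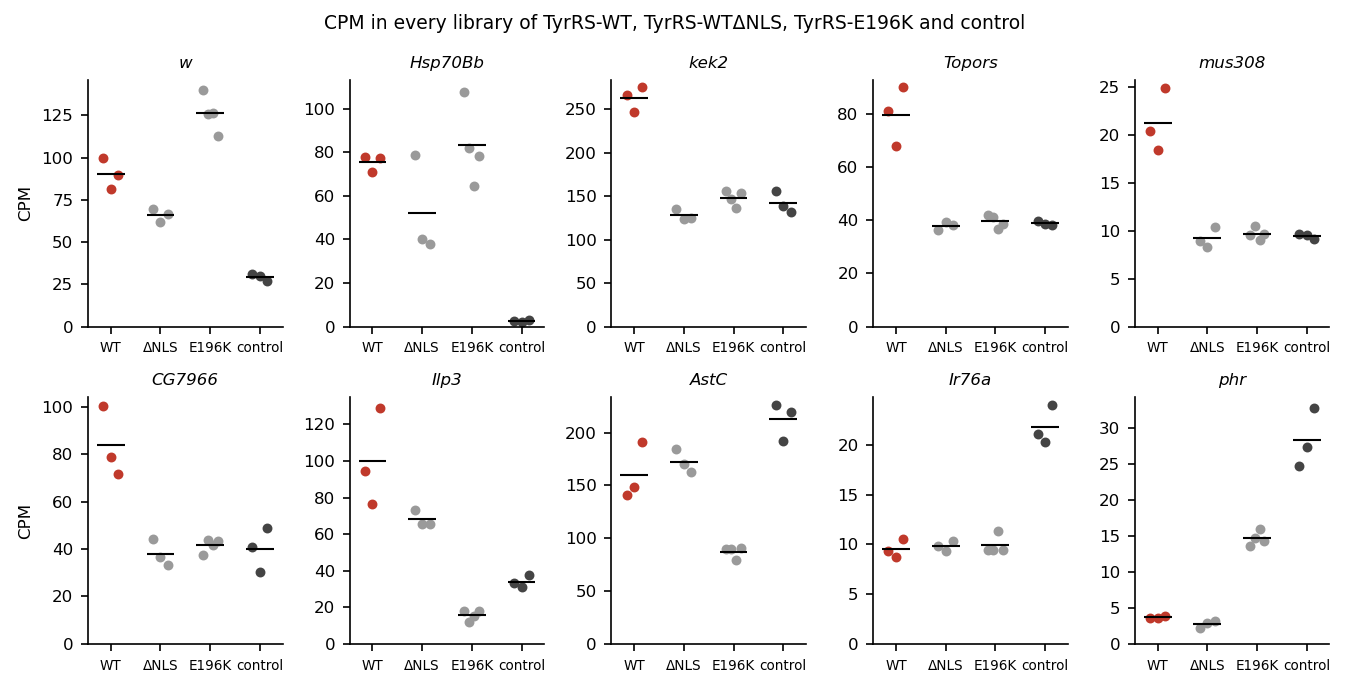
CPM of 10 genes in every library of TyrRS-WT (red), TyrRS-WTΔNLS and TyrRS-E196K (grey) and control (black), with a bar at each group's mean and axes that start at 0. Of the groups shown, TyrRS-WT alone is high for kek2, Topors, mus308 and CG7966, control alone is high for Ir76a, and TyrRS-E196K is lowest for Ilp3. TyrRS-E196KΔNLS is not shown.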

How the data were processed

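RNA-seq libraries were taken from labels and column names. The authors trimmed reads with Trimmomatic 0.32, mapped them to BDGP6 with TopHat2 2.0.12 and deposited raw counts per gene made with HTSeq 0.6.1. Their table of normalized values was not used. Sequencing ran in batches that are not named per library here and so were left out.

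The counts of 17 libraries were fitted together by edgeR 4.0.16 quasi-likelihood testing (robust prior, TMM scaling, R 4.3.3), adjusted by Benjamini-Hochberg over all 16163 genes at 0.05. The SE is the log2 fold change over the square root of F. Lines that name no gene held 2.57% to 3.80% (no feature) and 4.87% to 6.32% (ambiguous) of counts. Within TyrRS-WT and within control no library was a duplicate, since pairs differed with chi-square values between 74.7 and 139 per gene. Other pairs were not checked. In simulated counts of 15995 genes for TyrRS-WT against control, 97% of changes by 2 on the log2 scale, 68.7% by 1 and 27.3% by 0.5 were recovered, with 6 false calls. The changed genes were drawn from those with a mean of at least 1 CPM, so the rates do not cover rarer genes. No batch or other deviation shared by the genes of a library was simulated. Intervals cover counting error only.

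Named genes were called, averaged 1 CPM or more and had groups that did not overlap, taking the 15 largest rises and falls and the 10 rises and falls of highest mean. Called members of 56 gene lists, abundant members that describe a list, 2 neighbours on each side of the 3 largest rises and falls and Aats-tyr were added. The lists and genes were chosen with earlier results of these data known. Alternatives were DESeq2 1.42.0, its size factors, filterByExpr, only both genotypes, 1 surrogate variable (sva 3.50.0), a replicate block, each library left out, an adjusted p under 0.1 and, chosen after seeing the data, no robust prior. A called member of the replication and repair list is not reported here.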

Additional observations from a re-analysis of the deposited data

Results flagged for a closer look

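Ir76a, described among the receptors, had 9.44, 9.40, 11.38 and 9.48 CPM in the 4 TyrRS-E196K libraries, and the third lay farther from the other 3 than Dixon's 95% limit allows for 4 samples. Chance alone takes about 1 of 20 groups past that limit.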

How the results depend on the processing

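The number of genes called in TyrRS-WT against control was 371 and ranged from 203 to 398 when 1 library was left out. For TyrRS-WT against TyrRS-WTΔNLS the 194 calls ranged from 107 to 210, for TyrRS-WT against TyrRS-E196K the 262 calls from 154 to 280, for called list members the 66 from 32 to 72, and for windows with at least 5 called genes the 28 from 6 to 30. DESeq2 gave 770, 328, 448, 156 and 77 for these 5 numbers, and 355 of the 371 genes were among its 770. At an adjusted p under 0.1 the calls against control were 587 and the windows 55. A fit of only both genotypes tested 15594 genes and called 277 against control, 132 higher and 145 lower. Of the 371 genes 207 were among them, and the windows were 17. The cause of these differences was not tested. A replicate block, fitted without the unnumbered TyrRS-WTΔNLS library, gave 358 calls against control, 300 of them among the 371, and leaving out that library alone gave 378. Libraries of the same number had correlations of -0.468, -0.302 and 0.085 between their deviations. TyrRS-WT library 1 and control library 2, of different number, had 0.527. With 3 libraries per group these values cannot decide whether the numbers pair the libraries. No alternative turned the direction of the 132 called genes named, of which 56 were called in every fit and 76 lost the call in at least 1.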
